A study of Mus musculus with 6 samples.

Results

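The Hox genes of the 4 mammalian clusters, a to d, with paralogue numbers 1 to 13, were compared between control ileum and ileum labelled Gata6 KO. Members were all genes with such a symbol and nothing after the number, read from the brightest probe set that names 1 gene. This gave 37 genes, of 39 in the RefSeq gene table (assembly GRCm38.p6) and of 19938 genes measured in all. Hoxb8 shares its probe set with Hoxb7 and was not counted as measured.

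Hox proteins are homeodomain transcription factors that give cells their position along the body axis. The genes of a cluster lie in the order in which they are used from head to tail, and those with the same number in different clusters are paralogues, descended from a common ancestor. In the gut they are active mostly in the mesenchyme, that is muscle and connective tissue, and in part in the epithelium. The highest numbers, above all paralogue 13, are known from the hindgut.

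Total RNA of whole ileum was measured on Affymetrix mouse Gene 1.0 ST arrays, 1 array for each of 6 mice. The 3 controls were Villin-CreERT2 mice, in which tamoxifen switches on a Cre driven from the Villin promoter, active in intestinal epithelium. The 3 mice labelled Gata6 KO carried Villin-CreERT2 on a GATA6 flox/flox background. Mice of both groups were 6 to 8 weeks old when they received tamoxifen (100 mg/ml) on 5 days in a row, and ileum was taken 28 days later, at 10 to 12 weeks. The Villin promoter is not known to be active in muscle or connective tissue, which whole ileum also contains, and recombination was not measured here.

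Values are log2 signals, on which a difference of 1 is 2-fold. Array medians over all probe sets lay between 3.41 and 3.44 in controls and between 3.33 and 3.38 in the KO-labelled arrays. Correlations were 0.987 to 0.992 within and 0.980 to 0.984 between groups. Gata6 itself read 6.31, 6.33 and 6.50 on the control arrays, against 6.93, 6.81 and 6.86 for the other group, a difference of 0.49 (SE 0.08, limma adjusted p = 0.0162). That call was lost without control replicate 1 (0.0501) or Gata6 KO replicates 1 (0.0584), 2 (0.0573) or 3 (0.0623). The targeted gene was thus higher and not lower in the arrays labelled Gata6 KO, and directions here are those of the labels. The position of its probe set relative to the deleted exons is unknown here, so it may not check the deletion. Control replicate 3 read 2.31 for Xist and 5.30 for the Y-linked Eif2s3y, against 7.39 to 7.81 and 0.27 to 0.61 on the other 5 arrays, so it stood apart on both. The groups were thus not matched on these sex-linked genes, and fits without this array are given below. Control replicate 1 read 10.96 for the colon gene Car1, against 5.68 and 6.87 in the other controls. The ileal markers Slc10a2 and Fabp6, for bile acid uptake and binding, read 9.32 to 9.75 and 10.43 to 10.67 in the controls, against a median of 4.07 over all genes.

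Of the 37 Hox genes, Hoxb6 and Hoxd9 rose in the arrays labelled Gata6 KO, none fell, and 35 did not pass a limma adjusted p of 0.05. Over all genes measured 4.99% rose and 3.25% fell, or 8.24% in either direction, so the 5.41% of Hox genes that rose was near the background and is no result about the family. At an unadjusted p under 0.05 by limma, 8 Hox genes were higher and 2 lower, where 14.4% and 10.3% of all genes were. The median log2 fold change over the 37 genes was 0.03, beside -0.00433 over all genes, and 21 members had a positive and 16 a negative value. The 95% confidence intervals, which are not adjusted for the number of genes, lay within 2-fold in either direction for 36 of the 37, all but Hoxd10. They lay within 1.5-fold for 29 of 37. Only 9 members had a mean above the median gene, and the files give no detection call, so a small fold change of the 28 dimmer ones may be understated.

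**Figure D1:**
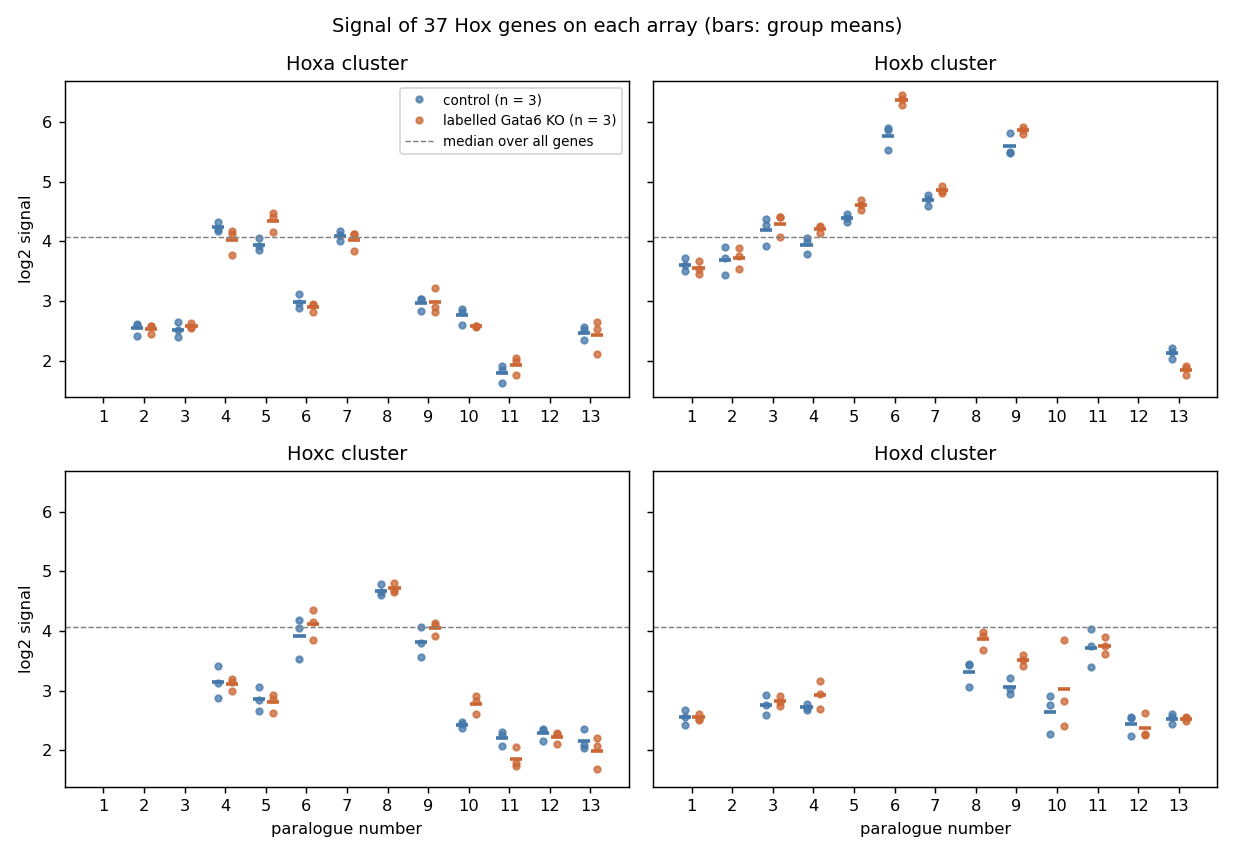
Log2 signal (vertical axis) of 37 Hox genes by cluster and paralogue number (horizontal axis). Points are the 3 control and 3 KO-labelled arrays, bars their means, and the dashed line is the median over all genes, 4.07; levels of different genes come from different probes and are not comparable. The arrays of Hoxb6 separate by group, at 5.54 to 5.90 against 6.27 to 6.44.

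Hoxb6, a mid-cluster gene of cluster b, read 5.54, 5.87 and 5.90 in controls and 6.39, 6.44 and 6.27 in the KO-labelled arrays. The 2 groups did not overlap, with control replicate 1 the lowest of the 6. This is a 1.52-fold difference, 0.60 on the log2 scale (SE 0.11, n = 3 in each group), with a 95% confidence interval of 0.33 to 0.87 and a limma adjusted p of 0.0235. That call was lost in 4 of the 6 fits that leave out 1 array: without control replicate 3 (0.0511) and without Gata6 KO replicates 1 (0.0811), 2 (0.102) or 3 (0.0606), while the fold change stayed between 0.49 and 0.67. Without both control replicates 1 and 3, which leaves 1 control array, it was 0.51.

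Most other genes of cluster b, which is known to be expressed in nested domains along the gut, had values of the same sign. Hoxb4 read 3.79, 4.05 and 3.99 in controls and 4.25, 4.24 and 4.14 in KO-labelled arrays, a log2 fold change of 0.27 (SE 0.09). For Hoxb5 the control values were 4.38, 4.45 and 4.32 and the KO-labelled values 4.61, 4.69 and 4.52, a difference of 0.22 (SE 0.08). In both genes the groups did not overlap, although neither passed (limma adjusted p = 0.129 and 0.146).

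Hoxb7 read 4.78, 4.70 and 4.60 against 4.85, 4.93 and 4.82, a log2 difference of 0.17 (SE 0.08, limma adjusted p = 0.241), again without overlap of the groups. Hoxb9, the next measured gene towards the tail end of the cluster, read 5.47, 5.82 and 5.49 in controls and 5.92, 5.86 and 5.80 in KO-labelled arrays, a difference of 0.27 (SE 0.11, limma adjusted p = 0.186). Here control replicate 2 lay within the range of the other group, and without it the limma adjusted p was 0.0458. In the other fits without 1 array it reached 0.397. Without both control replicates 1 and 3, which leaves 1 control array, the difference was 0.047.

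So all 5 measured genes of cluster b from paralogue 4 to 9 had a positive value, from 0.17 to 0.60, under the deposited scaling, under centring of arrays (0.23 to 0.66) and under quantile normalization (0.14 to 0.54). This stretch was singled out after its values were seen. The groups did not overlap, with KO-labelled arrays higher, in 4 of the 9 measured genes of the cluster, beside 16.8% of all genes, and in 8 of all 37 Hox genes. Of these 9 genes 6 were above the median gene, and 27.4% of all genes above it separated upwards. A further probe set is listed for both Hoxb7 and Hoxb8 and so names neither; it read 3.14, 3.54 and 3.43 in controls and 3.79, 3.90 and 4.01 in KO-labelled arrays. Its log2 fold change of 0.53 (SE 0.13) did not pass in the fit of all 35557 probe sets (limma adjusted p = 0.0990).

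At the ends of cluster b the pattern was not continued. Hoxb3, which belongs to the anterior genes, had 4.27, 3.93 and 4.37 in controls and 4.07, 4.401 and 4.41 in KO-labelled arrays, a log2 difference of 0.10 (SE 0.15, limma adjusted p = 0.706) with overlapping groups. Hoxb1 and Hoxb2 had log2 fold changes of -0.06 and 0.03. Hoxb13, the hindgut and prostate gene that stands alone at the far end of the cluster, read 2.15, 2.02 and 2.21 in controls and 1.88, 1.75 and 1.91 in KO-labelled arrays. These values are among the dim ones. The difference of -0.28 (SE 0.09) did not pass (limma adjusted p = 0.101), although all KO-labelled arrays lay below all controls.

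**Figure D2:**
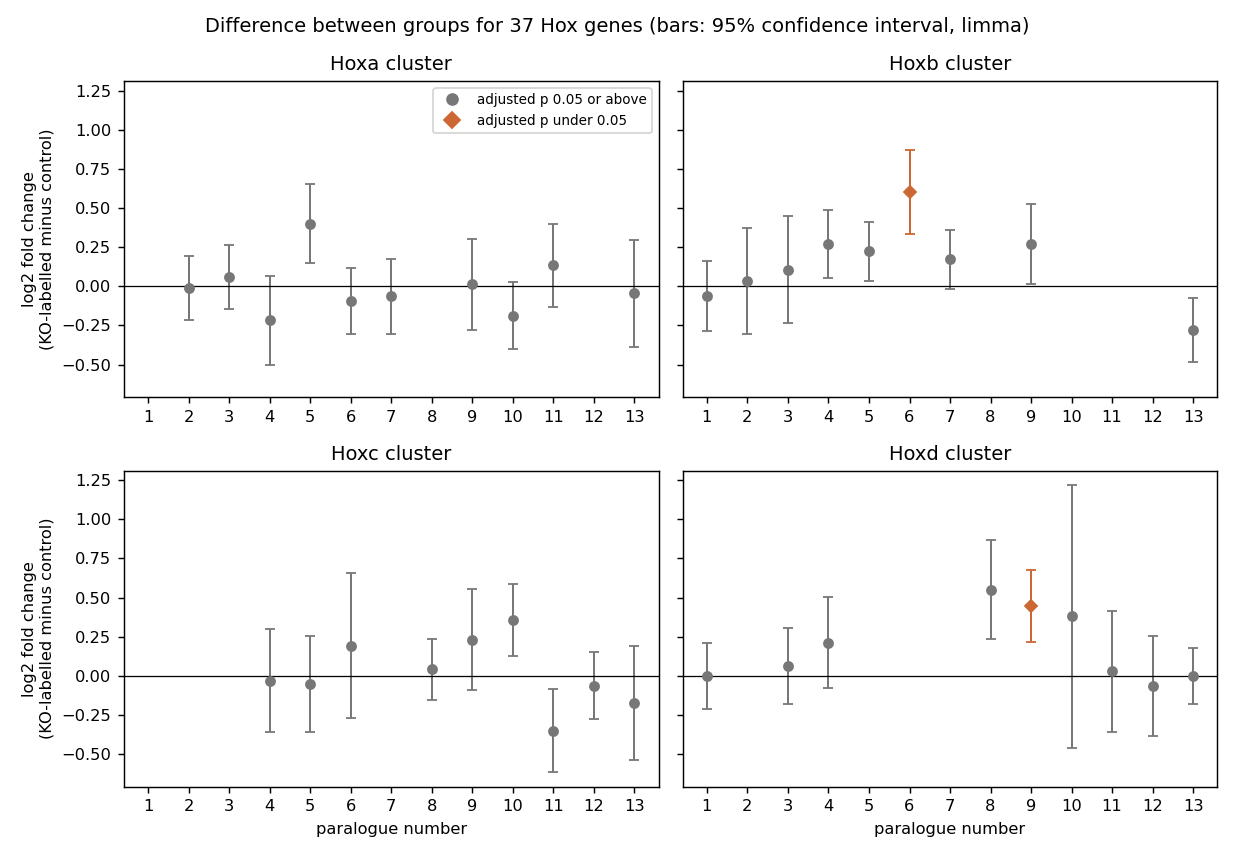
Log2 fold change, KO-labelled minus control (vertical axis), of 37 Hox genes by cluster and paralogue number (horizontal axis), with 95% confidence intervals from limma, n = 3 per group. Diamonds mark Hoxb6 and Hoxd9, the members with an adjusted p under 0.05; the interval of Hoxd10 runs from -0.46 to 1.22.

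In cluster d the 2 neighbours Hoxd9 and Hoxd8 had the largest values. Both are among the dimmer members, with means over the 6 arrays of 3.28 and 3.58 against 4.07 for the median gene. Of all genes at or below the median gene 3.01% passed in either direction. Hoxd9 read 3.22, 3.02 and 2.94 in controls and 3.52, 3.40 and 3.59 in KO-labelled arrays, without overlap. It rose by a log2 fold change of 0.44 (SE 0.10, 1.36-fold) with a limma adjusted p of 0.0378. The call was lost without control replicates 2 (0.0794) or 3 (0.120) and without Gata6 KO replicates 1 (0.107), 2 (0.0854) or 3 (0.123), with fold changes of 0.38 to 0.52. Without both control replicates 1 and 3, which leaves 1 control array, it was 0.48. Hoxd8 read 3.44, 3.43 and 3.05 in controls and 3.92, 3.98 and 3.68 in KO-labelled arrays, also without overlap. Its fold change of 0.55 (SE 0.13) lay just outside the threshold (limma adjusted p = 0.0503). Quantile normalization, centring of arrays and array weights moved it inside (0.0301, 0.0211 and 0.0452). It passed in none of the 6 fits without 1 array (0.0702 to 0.174).

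The 250 bases upstream of the RefSeq start of these neighbouring genes are shown because both carry the 4-letter core GATA, the sequence that GATA factors read, and because the genes had similar values. Capitals mark GATA or its reverse complement TATC. Both are on the + strand of GRCm38.p6, Hoxd9 at chr2:74697513-74697762 and Hoxd8 at chr2:74704365-74704614.
Hoxd9: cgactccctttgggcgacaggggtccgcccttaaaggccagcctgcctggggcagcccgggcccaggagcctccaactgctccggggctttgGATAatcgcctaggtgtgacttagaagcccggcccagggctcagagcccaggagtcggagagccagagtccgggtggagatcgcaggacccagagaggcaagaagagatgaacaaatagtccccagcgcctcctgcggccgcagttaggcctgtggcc
Hoxd8: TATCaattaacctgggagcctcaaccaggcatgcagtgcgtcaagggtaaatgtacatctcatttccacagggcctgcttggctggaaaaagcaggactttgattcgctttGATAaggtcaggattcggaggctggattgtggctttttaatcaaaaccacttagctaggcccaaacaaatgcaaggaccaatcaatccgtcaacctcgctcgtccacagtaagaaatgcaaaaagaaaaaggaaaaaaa
Hoxd9 has 1 match, which starts 158 bases before the gene's start, and Hoxd8 has 2, at 250 and 139 bases before it. So short a motif is common: GATA on either strand lay in 54.1% of 27025 promoter windows of this length and in 11 of the 22 Hox windows in the table. The letters TTTAT, a core bound by CDX factors, lay in 38.1% of all windows and in 8 of the 22, and TGATTNAT, a joint site of Hox and Pbx proteins, in 2.99% and in 1 of 22. GATA and TTTAT can overlap each other. A match is a description of the sequence and not evidence of binding.

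The rest of cluster d differed little between groups relative to its errors. Hoxd10 had the widest spread of all members: it read 2.92, 2.27 and 2.76 in controls and 2.40, 3.85 and 2.83 in KO-labelled arrays, so that its fold change of 0.38 (SE 0.36) came from Gata6 KO replicate 2. Hoxd4 had a log2 fold change of 0.21 (SE 0.12), and Hoxd1, Hoxd3, Hoxd11, Hoxd12 and Hoxd13 lay between -0.06 and 0.06. None of these 7 passed by limma.

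No gene of cluster a passed among 10 measured, and 1, Hoxa5, had an unadjusted p under 0.05 by limma. Hoxa5, which is needed for the normal development of gut and lung, read 3.92, 4.06 and 3.86 in controls and 4.16, 4.48 and 4.405 in KO-labelled arrays. The groups did not overlap, and the log2 fold change was 0.40 (SE 0.11, limma adjusted p = 0.0678). Without Gata6 KO replicate 1 it was 0.50 and passed (limma adjusted p = 0.0496). Its neighbour Hoxa4 went the other way: it read 4.21, 4.17 and 4.33 in controls and 4.12, 3.77 and 4.17 in KO-labelled arrays, a difference of -0.22 (SE 0.12, limma adjusted p = 0.316). Without Gata6 KO replicate 2, the lowest array, it was -0.092. Hoxa7 had a log2 fold change of -0.06 and Hoxa6 one of -0.09. Hoxa10 was lower without overlap, at -0.19 (SE 0.09, limma adjusted p = 0.251), and Hoxa2, Hoxa3, Hoxa9, Hoxa11 and Hoxa13 lay between -0.05 and 0.13.

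Cluster c also had no gene that passed among 9 measured, with 1 higher and 1 lower at an unadjusted p under 0.05 by limma. These were the neighbours Hoxc10 and Hoxc11, in opposite directions. Hoxc10 read 2.43, 2.37 and 2.47 in controls and 2.60, 2.82 and 2.92 in KO-labelled arrays, a log2 difference of 0.36 (SE 0.10, limma adjusted p = 0.0722). It passed with arrays centred (0.0429), under quantile normalization (0.0371) and without Gata6 KO replicate 1 (0.0467). Hoxc11 read 2.26, 2.08 and 2.30 against 2.06, 1.74 and 1.78, a difference of -0.35 (SE 0.11, limma adjusted p = 0.111). Both genes were dim on every array, and in both the groups did not overlap. Hoxc8, which was above the median gene, read 4.60, 4.78 and 4.66 against 4.80, 4.69 and 4.66, a difference of 0.04 (SE 0.08). Hoxc6 and Hoxc9 had log2 fold changes of 0.19 (SE 0.20) and 0.23 (SE 0.14), while Hoxc4, Hoxc5, Hoxc12 and Hoxc13 lay between -0.17 and -0.03.

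By cluster, the median log2 fold change was -0.03 in a, 0.17 in b, -0.03 in c and 0.06 in d. Over all genes it was 0.066 for those above the median gene and -0.0557 for those at or below it. Above the median gene lay 2 members of cluster a, 6 of b, 1 of c and none of d, so these medians also differ in brightness. On the KO-labelled arrays the median of cluster b over its 9 genes stood 0.16, 0.23 and 0.20 above the control mean, against -0.00300, 0.03 and 0.05 on the control arrays. By position, it was 0.03 for the 7 genes of paralogues 1 to 3, 0.18 for the 14 of paralogues 4 to 8 and 0.00600 for the 16 of paralogues 9 to 13. Of the 14 middle genes 9 had a positive value, and in 6 of them the KO-labelled arrays lay above all controls. Such upward separation was found in 16.8% of all genes. It was found in 27.4% of those above the median gene, where 7 of the 14 lay, beside 1 of the anterior 7 and 1 of the posterior 16. In none of the anterior 7 did the groups separate, and of the posterior 16 they did so upwards in 2 and downwards in 3, where 12.6% of all genes separated downwards and 29.3% in either direction.

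Paralogue 9 was the number with 4 measured members that were positive in every cluster: Hoxa9 at 0.01, Hoxb9 at 0.27, Hoxc9 at 0.23 and Hoxd9 at 0.44. They stayed positive under both other scalings. The 3 measured members of paralogue 3 and the 2 of paralogue 8 were likewise positive under all 3 scalings. Paralogue 9 was singled out after its values were seen. The value of Hoxa9 came from Gata6 KO replicate 2 at 3.21, since the other KO-labelled arrays, at 2.82 and 2.90, lay below the control mean of 2.96. The 4 members of paralogue 13, the most caudal genes, were all negative as deposited, from -0.28 for Hoxb13 to -0.00100 for Hoxd13, and only Hoxb13 and Hoxc13 stayed so under centring or quantile normalization. None of the 4 was above the median gene, and all genes at or below it had a median of -0.0557 as deposited. The sign of 8 of the 37 members changed with scaling, and as deposited these 8 lay between -0.0637 and -0.000333. Among 9 members above the median gene, 8 were positive under each of the 3 scalings, while 61.9% of all genes above that median were positive as deposited. This too was noticed after the values were seen.

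The microRNA genes inside the clusters were on the list of non-coding transcripts, since miR-196 and miR-10 are known to act on Hox messages. Their mature sequences from RefSeq (GRCm38.p6) follow, with the seed, bases 2 to 8, in capitals; the first pair shares a seed, as does the second, and the last stands alone.
mmu-miR-196a-5p: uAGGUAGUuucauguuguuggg
mmu-miR-196b-5p: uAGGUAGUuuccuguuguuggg
mmu-miR-10a-5p: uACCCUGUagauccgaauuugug
mmu-miR-10b-5p: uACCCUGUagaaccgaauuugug
mmu-miR-615-3p: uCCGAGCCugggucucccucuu
Counted from 1 at the 5′ end, miR-196b-5p differs from miR-196a-5p by A12C and miR-10b-5p from miR-10a-5p by U12A, both outside the seed. The array reads the gene of each microRNA, and primary and processed forms cannot be told apart.

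Of 11 measured transcripts on this list 1 fell, or 9.09% beside 3.25% of all genes, and none rose. The transcript that fell was Mir615, which lies within Hoxc5. It read 4.94, 4.87 and 5.04 in controls and 4.52, 4.59 and 4.62 in KO-labelled arrays, with no overlap, a log2 difference of -0.37 (SE 0.08, limma adjusted p = 0.0321). The call was lost in 5 of the 6 fits without 1 array (0.0762 to 0.108), all but that without control replicate 2. It was also lost with arrays centred (0.0545). Its host gene Hoxc5 differed by -0.05 (SE 0.13).

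Mir196a-1, which lies between Hoxb13 and Hoxb9, read 3.63, 4.51 and 4.03 in controls and 4.77, 4.81 and 4.58 in KO-labelled arrays. Its value of 0.66 (SE 0.21) had the sign of Hoxb9 and not that of Hoxb13, and did not pass (limma adjusted p = 0.104). Mir196a-2 in cluster c and Mir196b in cluster a, with no array above 1.76 and 2.20, had log2 fold changes of -0.29 and -0.17. Mir10a had no array above 1.21 and Mir10b none above 0.69. The 4 other lncRNA genes with known names, Hoxaas2, Hottip, Hoxd3os1 and Haglr, lay between -0.17 and 0.16. The unnamed 5730596B20Rik of cluster a had -0.49 (SE 0.12, limma adjusted p = 0.0563).

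Of the 3 nearest genes on each side of each cluster, 10 were measured and 1 rose, or 10.0% beside 4.99% of all genes. The gene that rose was Ttll6, a tubulin glutamylase gene and the nearest measured neighbour of Hoxb13. It read 3.14, 2.79 and 2.81 in controls and 3.55, 4.10 and 4.02 in KO-labelled arrays, a log2 difference of 0.98 (SE 0.17, limma adjusted p = 0.0157). That call was lost without control replicates 2 (0.0512) or 3 (0.0731) and without Gata6 KO replicates 2 (0.0708) or 3 (0.0658).

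Hox proteins bind DNA together with TALE cofactors of the Pbx, Meis and Pknox families. None of 8 measured cofactors passed, with 3 higher and none lower at an unadjusted p under 0.05 by limma (14.4% and 10.3% of all genes), and their median log2 fold change was 0.13. Meis2 read 4.33, 4.81 and 4.32 in controls and 5.10, 5.31 and 4.96 in KO-labelled arrays, a difference of 0.64 (SE 0.16, limma adjusted p = 0.0527). Meis1 had 0.47 (SE 0.14) and Pbx3 0.26 (SE 0.09), and in all 3 genes the groups did not overlap. These 3 were singled out after their values were seen.

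The ParaHox genes are the sister family of the Hox clusters, and among them Cdx1 and Cdx2 set intestinal identity. None of 6 passed, and none had an unadjusted p under 0.05 by limma. Cdx2 read 8.11, 8.07 and 8.25 in controls and 8.21, 8.43 and 8.32 in KO-labelled arrays, a log2 fold change of 0.18 (SE 0.09), and Cdx1 one of 0.08 (SE 0.08). Among 26 regional transcription factors of the intestine, 1 passed, in the lower direction, or 3.85% beside 3.25% of all genes. The median of this list was -0.10. The one that fell was the homeobox gene Irx2, from 4.30, 4.36 and 4.41 to 3.84, 3.81 and 4.04, a log2 difference of -0.45 (SE 0.09, limma adjusted p = 0.0249). Its call held in 1 of the 6 fits without 1 array, that without Gata6 KO replicate 3, and the limma adjusted p reached 0.104.

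Polycomb proteins keep Hox genes silent and trithorax proteins keep them active. Of 31 Polycomb genes 2 fell, or 6.45% beside 3.25% of all genes, and none rose, with a median log2 fold change of 0.06. Of the 31, 28 were above the median gene, where 13.5% of all genes passed in either direction. Pcgf5, a subunit of repressive complex 1, fell by 0.39 on the log2 scale (SE 0.09, limma adjusted p = 0.0361), and Jarid2, a partner of complex 2, by 0.35 (SE 0.08, 0.0488). Both calls were lost with any 1 array left out (0.0545 to 0.111 and 0.0787 to 0.155). None of 14 trithorax and MLL genes passed, with 4 higher and 1 lower at an unadjusted p under 0.05 by limma, beside the same 14.4% and 10.3% of all genes, and a median of 0.10. All 14 were above the median gene.

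Retinoic acid is a classical inducer of Hox genes. Of 18 measured genes of its metabolism and reception 3 rose and none fell, or 16.7% higher beside 4.99% of all genes, with a median of -0.00667. Dhrs3, which turns retinal back into retinol, rose from 6.52, 6.25 and 6.09 to 7.18, 7.32 and 7.12, by a log2 difference of 0.92 (SE 0.12, limma adjusted p = 0.0061). Rdh10, which makes retinal from retinol, rose from 6.63, 6.67 and 6.78 to 7.32, 7.36 and 7.25, by 0.61 (SE 0.08, limma adjusted p = 0.0051). Both kept the call with any 1 array left out. Both lost it when the level of smooth muscle genes was a covariate, at similar fold changes (Dhrs3 0.95, limma adjusted p = 0.182, and Rdh10 0.63, 0.169). Dhrs3 also lost it without moderation (0.0739). Most calls over all genes were lost with that covariate: 46 genes rose and 55 fell, beside 995 and 648 without it. The receptor gene Rarg rose by 0.48 (SE 0.08, limma adjusted p = 0.0163), a call lost without control replicate 1 (0.0501) or Gata6 KO replicates 1 (0.0511), 2 (0.0754) or 3 (0.0578), and with the smooth muscle covariate (0.333). Rbp2, which codes for the retinol-binding protein of enterocytes, had the largest value of the list, in the other direction: 5.76, 6.55 and 6.52 in controls and 4.29, 5.37 and 5.29 in KO-labelled arrays, a log2 difference of -1.29 (SE 0.33) that did not pass (limma adjusted p = 0.0567). The groups of Rbp2 did not overlap.

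Regional marker lists are given for position, and their counts stand beside 4.99% of all genes higher and 3.25% lower. All 14 ileal and all 17 colon genes measured were above the median gene, where 13.5% of all genes passed in either direction. Of 14 ileal genes 8 fell and none rose, among them Slc1a1, a glutamate transporter, by -2.04 (SE 0.17), the peptidase Dpp4 by -1.11 (SE 0.13), Fabp6 by -2.76 (SE 0.33) and the bile acid exporter subunit Slc51b by -0.84 (SE 0.12). Of 13 genes of the proximal small intestine 4 fell and 1, the iron exporter Slc40a1, rose. Those that fell included Slc5a1 (-1.08), Khk (-2.04) and Apoa4 (-2.96). The call of Apoa4 was lost without Gata6 KO replicates 1 (0.0554) or 2 (0.0592), and that of Slc40a1 without any 1 array (0.0701 to 0.0955) other than control replicate 3. Of 17 colon genes 8 rose and 1, Mptx1, fell. The 4 with the smallest p, ranked by p and not by size, were Sult1c2 at 3.36 (SE 0.18), Ggh at 1.32 (SE 0.08), Mettl7b at 1.795 (SE 0.12) and Slc6a14 at 1.07 (SE 0.08). These lists were chosen with results of these arrays known, so their counts are no independent evidence of direction. Beside these, the 2 Hox genes that rose did so by 0.60 and 0.44. The caudal genes Hoxa13, Hoxb13, Hoxc13 and Hoxd13 had no array above 2.64 in either group.

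The mean levels of 4 non-epithelial marker lists, those of smooth muscle, fibroblasts, mesothelium and enteric neurons and glia, were higher on all KO-labelled arrays than on any control. Of their 12, 11, 4 and 8 measured genes, in that order, 4 passed, all higher, where 4.99% of all genes rose. These were Tagln (smooth muscle), Upk3b and Msln (mesothelium) and Prph (neural). Above the median gene lay 11, 11, 4 and 4 of the genes, and 13.5% of all genes above it passed in either direction. All 12 smooth muscle genes had positive values and 1, Tagln, passed; their mean level was 7.10 to 7.29 in controls and 7.31 to 7.65 in KO-labelled arrays. The 11 fibroblast genes were also all positive, none passed, 6 were higher at an unadjusted p under 0.05 by limma (14.4% of all genes), and their mean level was 7.29 to 7.70 against 7.77 to 8.02. Of the 4 mesothelial genes Upk3b and Msln rose, by 0.61 (SE 0.10) and 0.54 (SE 0.11), and the list's mean was 4.66 to 4.89 against 5.06 to 5.48. Enteric neuron and glia genes, with Prph called among 8, had means of 3.49 to 3.66 against 3.72 to 3.80. Of the 8 neural genes 4, Elavl4, S100b, Sox10 and Gfap, were below the median gene, and without detection calls their signal over background is unknown. The means of the epithelial, lymphoid and endothelial lists overlapped between groups, although Vil1, whose promoter drives the Cre, fell by 0.41 on the log2 scale (SE 0.08). With 1 array left out these calls were lost in part: Tagln without control replicates 1 or 3 or Gata6 KO replicates 2 or 3 (0.110 to 0.142), Upk3b without control replicate 3 (0.0678), Msln without any but Gata6 KO replicate 3 (0.0620 to 0.105), Prph without any but control replicate 1 (0.0578 to 0.0891), and Vil1 without control replicate 3 or any KO-labelled array (0.0607 to 0.0954). In whole tissue, more cells of a type and more RNA per cell cannot be told apart.

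When the fit included the level of smooth muscle genes, Hoxb6 had a log2 fold change of 0.53 with a larger SE of 0.21 (limma adjusted p = 0.412) and Hoxd9 one of 0.51 (SE 0.18, limma adjusted p = 0.354). Hoxd8 then had 0.60 (SE 0.25), whereas Hoxa5 went from 0.40 to 0.10 (SE 0.14) and Hoxc10 from 0.36 to 0.16 (SE 0.16). Hoxc11 went from -0.35 to -0.019 (SE 0.14) and Hoxa4 from -0.22 to -0.073 (SE 0.21). The smooth muscle level itself did not overlap between groups, at 7.10 to 7.29 in controls and 7.31 to 7.65 in KO-labelled arrays. This fit therefore cannot tell its part from that of the group label. Over all genes 46 rose and 55 fell with the covariate, beside 995 and 648 without it. The part of fibroblast and mesothelial tissue in the Hox values was not tested either.

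**Figure D3:**
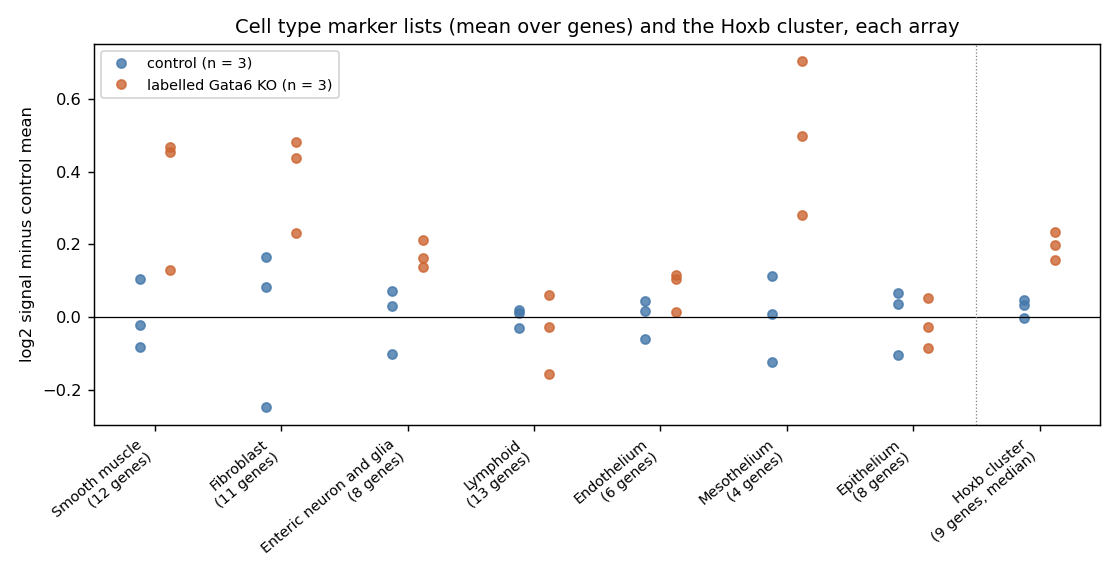
Mean log2 signal of each cell type marker list, minus its control mean (vertical axis), on the 3 control and 3 KO-labelled arrays, with the median of 9 Hoxb genes at the right. Smooth muscle, fibroblast, neural and mesothelial lists and the Hoxb cluster are higher on all KO-labelled arrays, while the lymphoid, endothelial and epithelial lists overlap.

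**Figure D4:**
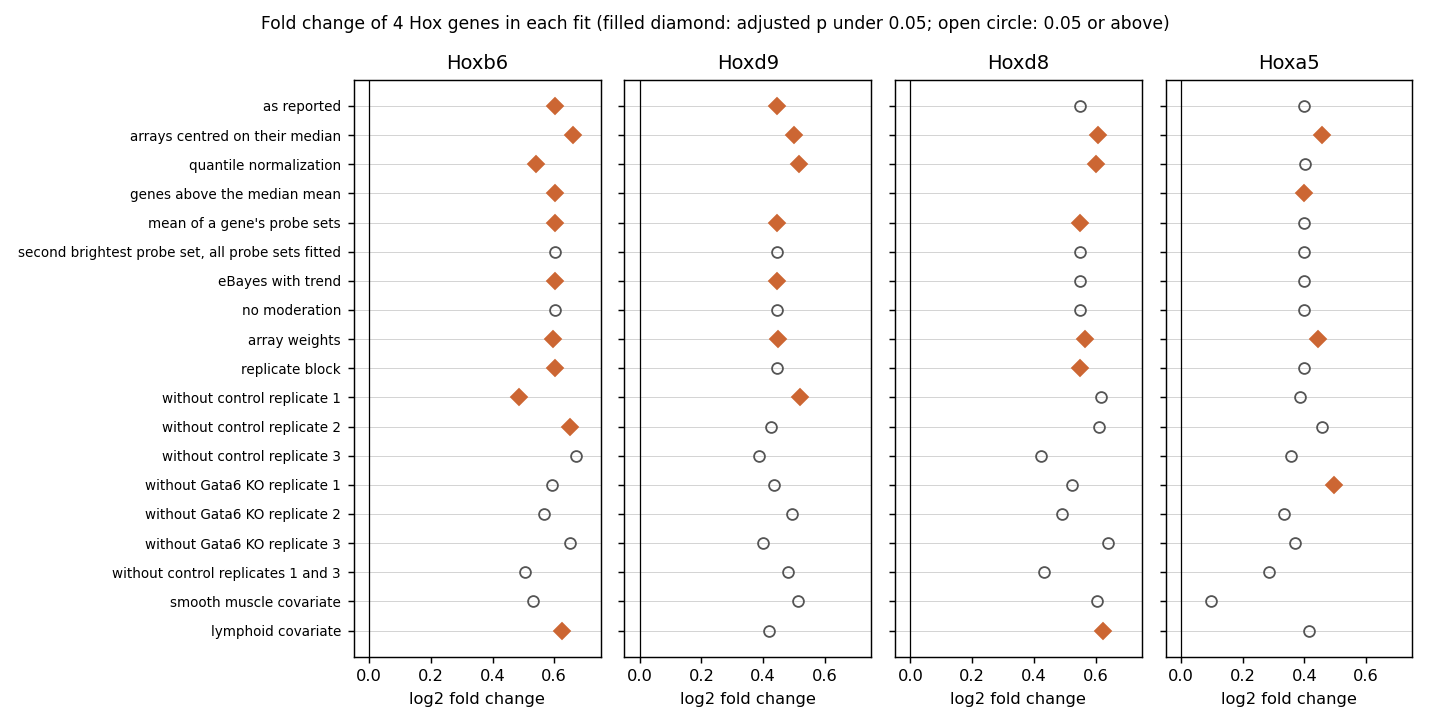
Log2 fold change (horizontal axis) of Hoxb6, Hoxd9, Hoxd8 and Hoxa5 under each setting of the fit (vertical axis); filled diamonds have a limma adjusted p under 0.05. All values are positive, and Hoxb6 passes in 8 of the 12 settings that do not leave out a single array and in 2 of the 6 that do.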

How the data were processed

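The authors deposited log2 signals per probe set. Expression Console from Affymetrix is the program named in the submitters' processing notes; no source used here gives its version, background correction or normalization, and base 2 follows from the values' range alone. The table holds 35557 probe sets, of which 21789 have 1 gene symbol; for 999 genes with several, the brightest by mean was kept, leaving 19938 genes, with no filter. All 37 members matched RefSeq by gene identifier. Groups were compared with limma 3.58.1 in R 4.3.3 (lmFit, eBayes, two-sided, Benjamini-Hochberg over all genes, threshold 0.05). The fit was also run on simulated data with independent noise. Those data held no sex or tissue differences between arrays, so that run does not bear on the calls reported here. The labels state 3 individual mice per group; no batch is given, and the number of arrays limits the precision. Replicate numbers were not used as pairs in the main fit, and whether they pair the arrays is unknown.

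Members and lists were chosen with earlier results of these data known. All measured Hox genes were to be reported, with all 6 values for those that passed, were above the median gene, or had the 2 largest changes of a cluster, and on other lists up to 4 members that passed, by smallest p. Hoxa10, Hoxd10, Mir196a-1, Meis2, Meis1, Pbx3, Cdx1, Cdx2 and 5730596B20Rik fall outside this rule; they were chosen with their values in view. From the list of non-coding transcripts 1 name, A730017L22Rik, was dropped because RefSeq places it outside the clusters. Alternatives covered scaling, dim genes, probe set choice, moderation, array weights, a replicate block, left-out arrays and covariates.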

Additional observations from a re-analysis of the deposited data

How the results depend on the processing

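The fold changes of Hoxb6, Hoxd9, Hoxd8 and Hoxa5 were positive under all alternatives run for them, and no Hox gene was lower at an adjusted p under 0.05 under any. The count of Hox genes that rose, 2, was 5 with arrays centred and 4 under quantile normalization and with array weights. It was 0 with second-brightest probe sets read and all probe sets adjusted together, without moderation, or with the smooth muscle covariate. Without 1 array it was 0 to 2, with 0 without control replicate 3 or Gata6 KO replicates 2 or 3. Over all genes 995 rose as reported, 1562 with arrays centred, 963 under quantile normalization and 1207 with array weights. That number was 404 with second-brightest probe sets, 168 without moderation and 46 with the smooth muscle covariate. Without 1 array it ran from 320 to 806. A Hox count that moved with a setting is thus no result about the family. Cluster medians moved with centring to 0.029 (a), 0.23 (b) and 0.027 (c), and with quantile normalization to 0.065 (a), 0.040 (c) and 0.16 (d). They were 0.25 for b among genes above the median, 0.026 for c with the smooth muscle covariate, 0.15 for d without control replicates 1 and 3 and 0.12 with centring, and -0.072 for c with the lymphoid covariate. Without 1 array they ran from -0.094 to 0.020 (a), 0.14 to 0.22 (b), -0.046 to 0.055 (c) and 0.017 to 0.18 (d). Paralogues 1 to 3 had medians of 0.089 and 0.096 with centring and quantile normalization and -0.0027 to 0.063 without 1 array. Paralogues 9 to 13 had 0.063, 0.074 and -0.031 to 0.086 likewise. Paralogues 4 to 8 had 0.0625 without control replicates 1 and 3, 0.091 with the smooth muscle covariate, and 0.10 to 0.21 without 1 array. The sign turned for Hoxb3, to -0.035 with the smooth muscle covariate and over -0.027 to 0.22 without 1 array, and for Hoxc8, to -0.059 without control replicates 1 and 3 and over -0.0018 to 0.092 without 1 array.

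On the other lists 17 genes rose and 18 fell, where 4.99% and 3.25% of all genes did. The higher count was 30 with centring and 29 among genes above the median. It was 5 without moderation or with the smooth muscle covariate, and 10 to 16 without 1 array. The lower count was 8 with second-brightest probe sets read and all probe sets adjusted together, and 1 without moderation. It was 5 with the smooth muscle covariate and 7 to 17 without 1 array. Of 26 named genes of these lists, Gata6 included, 12 kept the call without any 1 array and none turned direction. Same-numbered arrays deviated together at 0.04, -0.04 and 0.15, and differently numbered ones at -0.12 to 0.08. With 3 arrays per group these correlations cannot settle whether the numbers pair the mice. With the replicate block 2 Hox genes passed by limma, Hoxb6 and Hoxd8 (adjusted p = 0.0252), and Hoxd9 did not (0.0668). Apart from fewer arrays, genes or degrees of freedom, the cause of these changes was not tested. With no detection calls, signal over background is unknown, which limits the 28 dimmer Hox genes.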
